A study of Homo sapiens with 34 samples.

Results

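Occupancy of RBPJ and SOX2 was described at 40 genes of the cell cycle and mitosis, out of 19962 protein-coding genes on chromosomes 1 to 22 and X. The genes were taken as a fixed list by name. They comprised 6 genes of the spindle assembly checkpoint (BUB1, BUB1B, BUB3, MAD2L1, TTK, CDC20), 4 mitotic kinases and survivin genes (AURKA, AURKB, PLK1, BIRC5), 7 cyclins and cyclin-dependent kinases (CDK1, CDK2, CCNA2, CCNB1, CCNB2, CCNE1, CCNE2), 3 CDC25 phosphatases (CDC25A, CDC25B, CDC25C), 8 origin licensing genes (CDC6, CDT1, MCM2 to MCM7), 4 genes of the replication fork and nucleotide supply (PCNA, RRM1, RRM2, TOP2A), 4 transcription factors (E2F1, E2F2, E2F3, FOXM1) and 4 genes of chromosome structure and motors (MKI67, KIF11, CENPA, CENPE). A promoter summit was a peak summit within 1 kb of the transcription start site (TSS) of the GENCODE 44 gene record, and summits within 50 kb were counted as well. The other 19922 protein-coding genes, treated the same way, served as the background.

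Chromatin immunoprecipitation and sequencing (ChIP-seq) had been performed in MB157, a triple-negative breast cancer line, and in MB157R, its derivative after 25 weeks in 1 µM of the γ-secretase inhibitor LY3039478, which blocks NOTCH activation. Whether MB157R is a clone or a mixed population, and whether the libraries of a group came from separate cultures, the labels do not say. All cells carried a doxycycline-inducible vector and received 1 µg/ml doxycycline for 72 h. In MB157R the vector encoded an active NOTCH1 (iN1-ICD) or was empty (iEV), and RBPJ and SOX2 were precipitated from both. In MB157 it encoded HA-tagged SOX2 (iSOX2), from which RBPJ and the HA tag were precipitated, or was empty (iEV), from which RBPJ and, as a control, the HA tag were precipitated. The 34 libraries were 22 immunoprecipitations in 8 groups and 12 inputs in 4 groups, with 3 libraries a group and 1 library for the HA control. The authors pooled the libraries of a group before calling peaks, so each condition is 1 list, and no difference below can be set against a spread between replicates. No test was run for this reason, and intervals of fragment numbers cover counting error only. The induced proteins were expressed from a vector and not from the cells' own genes, and the cell type could not be checked against marker genes because expression was not measured in these libraries.

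Cells pass through the cycle in a fixed order. In late G1 and S phase, E2F factors switch on genes that license replication origins, copy DNA and supply nucleotides. Later, in G2 and mitosis, a second wave that includes cyclin B, the Aurora and Polo kinases and the spindle checkpoint is switched on through the CHR element (cell cycle genes homology region), read by the DREAM complex and by MYBL2 with FOXM1, usually near a CCAAT box bound by NF-Y. RBPJ is the DNA-binding protein of the NOTCH pathway, which represses target genes by itself and activates them when it is joined by the NOTCH intracellular domain. SOX2 binds DNA through an HMG box and is best known from embryonic and neural stem cells.

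The letters under the main sites are shown first, because the word that RBPJ or SOX2 reads was present at some of them and absent from others. RBPJ words were CGTGGGAA, CGTGAGAA, TGTGGGAA and TGTGAGAA, SOX words were ACAAAG and ACAATG, E2F words were TTTGGCGC, TTTCCCGC, TTTGCCGC and TTTCGCGC, CHR words were TTTGAA and TTCGAA, and the CCAAT box was CCAAT, all searched on both strands. The first 6 sequences are the 201 bases centred on a summit, read on the plus strand of hg38. The RRM2 site (chr2:10120192-10120392) had the highest RBPJ fold of all 40 promoters and held no RBPJ, SOX, E2F or CHR word, and its capitals mark the only CCAAT box. The MAD2L1 site (chr4:120067207-120067407) is shown for the RBPJ word at its summit, in capitals. The MCM7 site (chr7:100101479-100101679) had an E2F word at the RBPJ summit and no RBPJ word, and the capitals mark the E2F word. The site in the first intron of RARA (chr17:40317949-40318149) had the highest RBPJ fold between 1 and 50 kb from any of the genes in both MB157R lists, and its capitals mark the RBPJ word, which lies on the minus strand. The BUB1 upstream site (chr2:110688915-110689115) and the CCNA2 upstream site (chr4:121834544-121834744) were among the strongest SOX2 and HA-SOX2 sites near the genes, and capitals mark their SOX words.
RRM2 upstream site: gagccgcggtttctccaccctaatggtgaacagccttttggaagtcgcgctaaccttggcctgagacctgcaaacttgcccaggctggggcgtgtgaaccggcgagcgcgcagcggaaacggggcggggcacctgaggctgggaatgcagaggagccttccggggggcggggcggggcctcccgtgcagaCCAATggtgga
MAD2L1 site: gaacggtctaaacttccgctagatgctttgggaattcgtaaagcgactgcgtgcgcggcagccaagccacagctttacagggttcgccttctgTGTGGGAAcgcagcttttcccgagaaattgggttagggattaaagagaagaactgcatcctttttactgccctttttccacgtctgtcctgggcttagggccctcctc
MCM7 site: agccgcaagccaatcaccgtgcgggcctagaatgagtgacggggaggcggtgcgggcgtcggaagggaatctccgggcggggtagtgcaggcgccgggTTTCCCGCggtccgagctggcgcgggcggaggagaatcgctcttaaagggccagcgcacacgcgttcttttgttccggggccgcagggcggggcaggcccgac
RARA intron site near CDC6: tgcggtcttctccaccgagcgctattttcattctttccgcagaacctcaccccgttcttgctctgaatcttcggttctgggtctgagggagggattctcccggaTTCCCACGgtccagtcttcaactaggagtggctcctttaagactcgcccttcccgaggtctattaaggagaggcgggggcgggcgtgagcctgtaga
BUB1 upstream site: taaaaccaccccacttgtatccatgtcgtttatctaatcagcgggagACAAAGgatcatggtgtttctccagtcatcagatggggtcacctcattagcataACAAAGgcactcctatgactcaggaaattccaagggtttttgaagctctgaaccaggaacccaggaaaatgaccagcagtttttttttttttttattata
CCNA2 upstream site: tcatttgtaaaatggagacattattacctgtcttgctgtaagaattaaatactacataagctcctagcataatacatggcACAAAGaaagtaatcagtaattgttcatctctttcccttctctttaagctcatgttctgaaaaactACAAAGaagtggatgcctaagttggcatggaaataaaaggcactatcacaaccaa

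A pair of promoters shows the elements of the cell cycle program itself. They are the 250 bases before and the 50 bases after the RefSeq start (GRCh38.p14), written in the direction of the gene, which is the plus strand for both. In PLK1 (chr16:23678639-23678938) and CDK1 (chr10:60778081-60778380), capitals mark the CHR word and the CCAAT box, and in CDK1 also the E2F word near the end. The RBPJ summits at PLK1 lay upstream of both elements, near the start of the printed stretch.
PLK1 promoter: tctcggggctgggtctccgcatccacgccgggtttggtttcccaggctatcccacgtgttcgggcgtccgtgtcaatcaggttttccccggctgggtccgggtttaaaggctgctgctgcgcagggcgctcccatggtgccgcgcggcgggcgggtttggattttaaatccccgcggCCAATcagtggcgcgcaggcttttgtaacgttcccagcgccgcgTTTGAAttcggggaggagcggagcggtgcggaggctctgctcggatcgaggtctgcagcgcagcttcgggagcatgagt
CDK1 promoter: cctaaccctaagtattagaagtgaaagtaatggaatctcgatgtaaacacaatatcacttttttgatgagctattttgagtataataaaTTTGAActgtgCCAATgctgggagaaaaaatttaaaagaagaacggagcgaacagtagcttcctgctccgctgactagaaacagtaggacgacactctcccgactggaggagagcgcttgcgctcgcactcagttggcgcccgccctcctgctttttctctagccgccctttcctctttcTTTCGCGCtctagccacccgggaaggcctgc

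Of the 40 genes, 31 had a RefSeq promoter to search. CHR words were present in 14 of the 31 (45.2%), against 13.4% of 15285 other promoters. A CCAAT box was present in 23 (74.2%), against 36.5%, and both together in 13 (41.9%), against 5.54%. Genes with both included BUB1, MAD2L1, CDC20, PLK1, CDK1, CCNB2, TOP2A, MKI67 and KIF11. E2F words were present in 13 promoters (41.9%), against 4.42%, and these were mainly licensing and S phase genes such as CDC6, CDT1, MCM2, MCM3, MCM6, MCM7 and PCNA. RBPJ words were in 2 promoters, those of AURKB and E2F3 (6.45%, against 3.79%), and SOX words in 2, those of E2F1 and E2F3 (6.45%, against 19.3%). The E2F and CHR words set these promoters apart from others by count, whereas the words of RBPJ and SOX2 did so little or in the other direction. These counts say what letters the windows hold and nothing about binding.

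RBPJ was called at most of these promoters. A summit lay within 1 kb of the TSS of 26 genes (65.0%) in MB157R iN1-ICD, 38 (95%) in MB157R iEV, 30 (75.0%) in MB157 iSOX2 and 24 (60%) in MB157 iEV. The shares of other protein-coding genes were 42.9%, 56.0%, 50.3% and 37.9% in the same order of lists, so the cell cycle genes were above the background in every RBPJ list. SOX2 was called at 0 promoters in MB157R iN1-ICD (background 0.0753%) and at 13 (32.5%) in MB157R iEV (background 21.8%), and HA-SOX2 at 18 (45.0%) in MB157 iSOX2 (background 34.0%). The HA control of MB157 iEV had none (background 0.0803%). The 8 lists differ in length and depth, which bears on every count: the RBPJ lists held 37297, 46601, 34521 and 25243 peaks and expected 1.75, 1.82, 2.04 and 1.60 fragments at any position of the genome, the list's floor. Shortened to the 25243 peaks of the shortest, they called 20 genes in MB157R iN1-ICD (background 32.2%) and 26 in MB157R iEV (42.2%). At that length there were 26 in MB157 iSOX2 (42.9%) and 24 in MB157 iEV (37.9%), so MB157R iEV no longer stood above MB157 iSOX2.

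The shares were also set out by the base composition of the promoters. CpG-rich promoters (a GC content of at least 55% and a CpG ratio of at least 0.65 within 500 bp of the TSS) were held by 30 of the 40 genes and by 9721 others, a class chosen after the first counts had been seen. Within it, RBPJ was called at 20 of the 30 genes (66.7%) in MB157R iN1-ICD, against 61.6% of the other CpG-rich genes, at 29 (96.7%) in MB157R iEV, against 80.8%, at 21 (70.0%) in MB157 iSOX2, against 74.5%, and at 15 (50.0%) in MB157 iEV, against 56.3%. By the gene-record TSS the cell cycle genes were thus clearly above this class in MB157R iEV only, and near it in the other lists. With the canonical start the shares were 63.3% in MB157R iN1-ICD, against 60.9%, and 96.7% in MB157R iEV, against 79.9%. They were 76.7% in MB157 iSOX2, against 73.3%, and 53.3% in MB157 iEV, against 55.4%. The 10 genes without a CpG-rich promoter were called at 6 (60%) in MB157R iN1-ICD, against 25.2% of 10201 other genes without one, and at 9 (90%) in each of MB157R iEV, MB157 iSOX2 and MB157 iEV, against 32.4%, 27.3% and 20.4%. Outside the CpG-rich class they were therefore far above the background in every RBPJ list, on 10 genes. SOX2 was called at 11 (36.7%) in MB157R iEV, against 28.2%, and HA-SOX2 at 14 (46.7%) in MB157 iSOX2, against 43.9%. Without a CpG-rich promoter, SOX2 was called at 2 of the 10 genes (background 15.7%) and HA-SOX2 at 4 (background 24.5%). The 83 cytosolic ribosomal protein genes, another class of broadly expressed genes, had RBPJ promoter summits at 65.1%, 86.7%, 67.5% and 51.8% in the order MB157R iN1-ICD, MB157R iEV, MB157 iSOX2 and MB157 iEV.

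**Figure D1:**
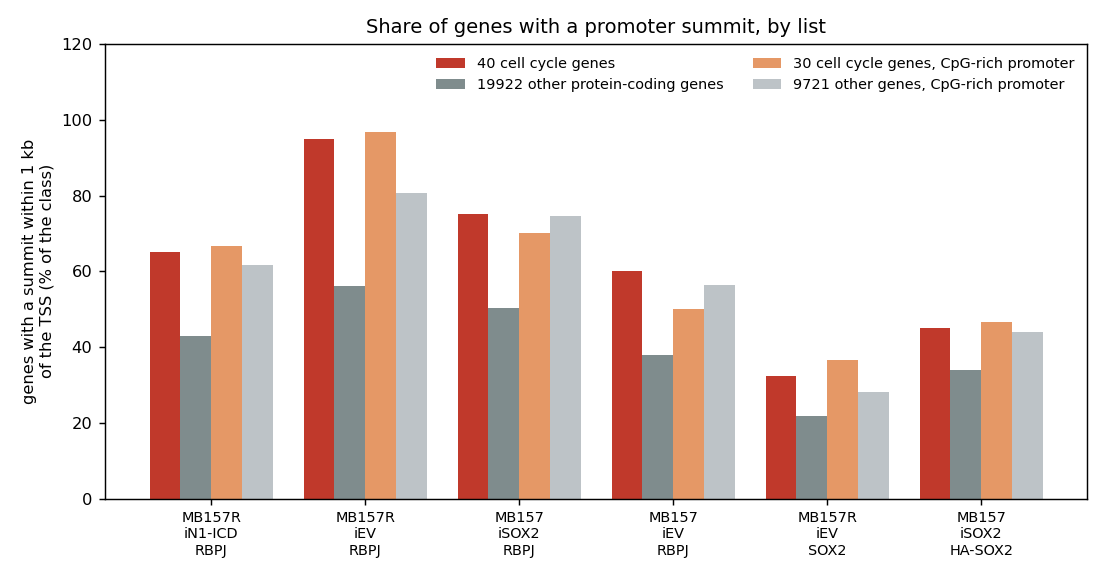
Share of genes with a summit within 1 kb of the TSS (vertical axis, % of each class) in 6 peak lists (horizontal axis), with 1 bar for each of 4 gene classes and no error bars because each list is a single pooled call. The 40 cell cycle genes reach 95% in MB157R iEV RBPJ, against 56.0% of other genes and 80.8% of other genes with a CpG-rich promoter. The lists are shown as deposited and differ in length, and MB157R iEV is the longest RBPJ list. The MB157R iN1-ICD SOX2 and HA control lists are left out, as none of the 40 genes had a promoter summit there.

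The median fold at these promoters was near that of other called promoters. The median fold over background at the highest promoter summit was 5.04 for the cell cycle genes in MB157R iN1-ICD (5.13 for other called genes), 5.85 in MB157R iEV (6.38), 5.44 in MB157 iSOX2 (4.94) and 4.68 in MB157 iEV (5.10). For SOX2 in MB157R iEV it was 4.73 (4.39), and for HA-SOX2 in MB157 iSOX2 it was 4.06 (4.32). A fold above 10 was reached by 3 genes in MB157R iN1-ICD, 7 in MB157R iEV, 4 in MB157 iSOX2 and 3 in MB157 iEV. These were 11.5%, 18.4%, 13.3% and 12.5% of the called genes in that order, against 7.16%, 15.3%, 7.32% and 7.57% of other called genes. The summits themselves held few fragments, with a median of 14.5, 19.5, 18.0 and 16.0 in the 4 RBPJ lists in that order, and most of the calls described here rest on numbers of that size. In all 4 RBPJ lists together, 17 of the 40 genes (42.5%) had a promoter summit, against 25.6% of other genes. Another 9 had it in 3 lists, 10 in 2 lists, 3 in 1 list (BUB3, FOXM1 and CENPE) and 1 gene, PLK1, in none.

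**Figure D2:**
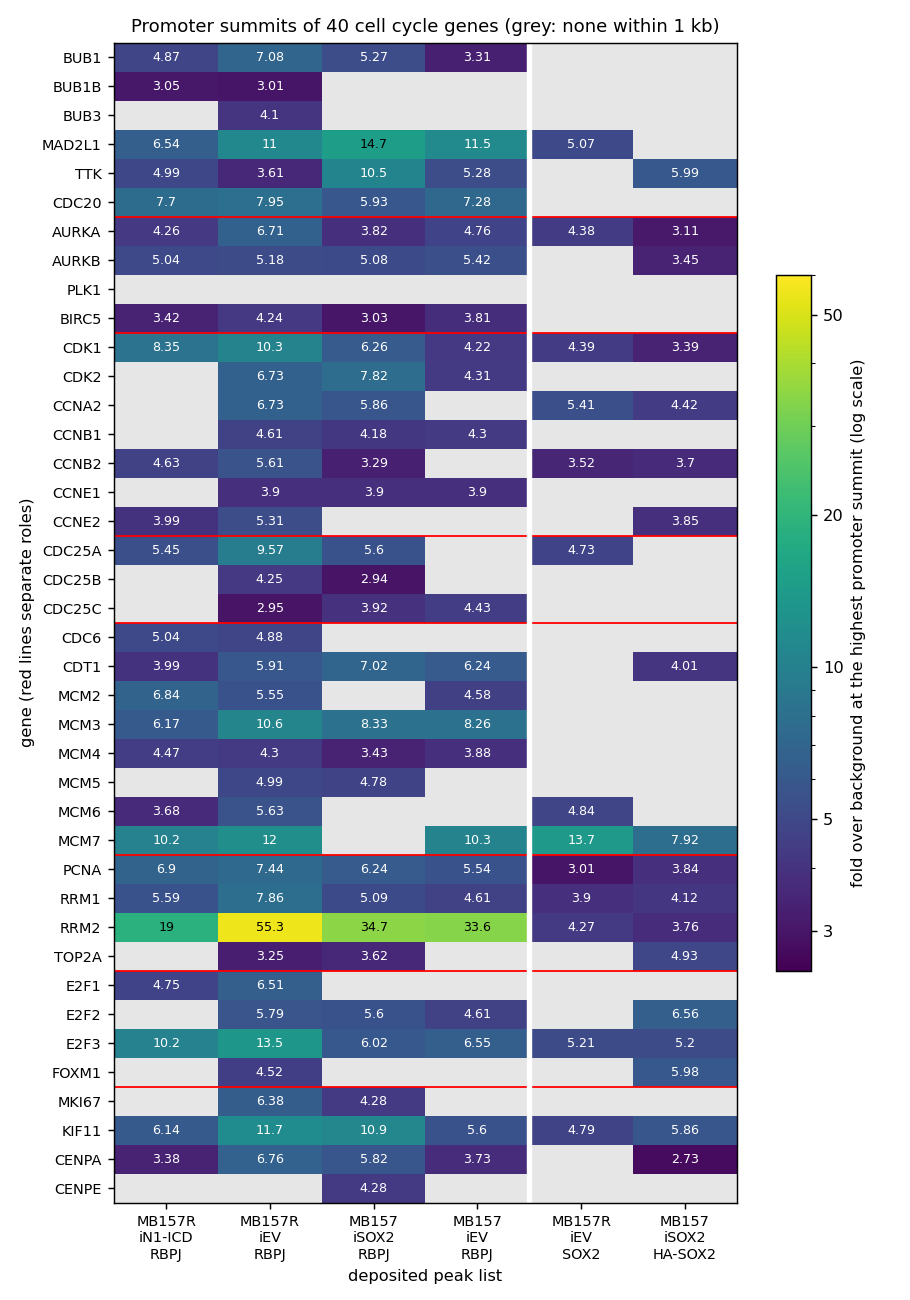
Fold over background at the highest summit within 1 kb of the gene-record TSS (colour on a log scale, values printed) for the 40 genes (rows, grouped by role with red lines) in 6 peak lists (columns). Grey cells have no summit, and RRM2 stands out with 19.0, 55.3, 34.7 and 33.6 in the RBPJ columns, while PLK1 is grey throughout because its summits lie 1017 to 1019 bp from this TSS.

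RRM2, the regulatory subunit of ribonucleotide reductase, which makes deoxynucleotides for DNA synthesis, had the highest RBPJ promoter fold of the 40 genes in every RBPJ list. The fold was 19.0 in MB157R iN1-ICD, 55.3 in MB157R iEV, 34.7 in MB157 iSOX2 and 33.6 in MB157 iEV. In MB157R iEV the peak was chr2:10119672-10120952, and the summit ranked 12 among all promoter summits of that list. The summit held 113 fragments (95% Poisson interval 93.1 to 136) in MB157R iN1-ICD, 186 (160 to 215) in MB157R iEV, 119 (98.6 to 142) in MB157 iSOX2 and 97 (78.7 to 118) in MB157 iEV. Divided by the floor of each list, these were 64.4, 102, 58.5 and 60.5. The low fold in MB157R iN1-ICD went with a local expected background of 5.01 fragments, against 2.38 in MB157R iEV. Relative to the floor, MB157R iN1-ICD therefore stood with both MB157 lists, and MB157R iEV was the high one. All 4 summits were 393 to 411 bp upstream of the gene-record TSS. The canonical transcript of RRM2 starts 2.04 kb further downstream, and its own start had weaker summits, the highest with a fold of 8.32 in MB157R iEV. SOX2 in MB157R iEV had a fold of 4.27 (16 fragments) 149 bp downstream of the gene-record TSS, and HA-SOX2 in MB157 iSOX2 a fold of 3.76 (13 fragments) 320 bp upstream of it. RRM1, the catalytic subunit, had RBPJ folds of 5.59, 7.86, 5.09 and 4.61 in MB157R iN1-ICD, MB157R iEV, MB157 iSOX2 and MB157 iEV.

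PLK1, the Polo kinase of mitotic entry and spindle formation, was counted as empty by the rule, and yet it had the second strongest RBPJ site near a start of any of these genes. Its summit lay at 1017 bp (both MB157R lists), 1018 bp (MB157 iSOX2) and 1019 bp (MB157 iEV) downstream of the gene-record TSS, just outside the window. From the canonical start, which the RefSeq promoter also uses, it was 214 to 216 bp upstream. The fold was 17.3 in MB157R iN1-ICD, 17.7 in MB157R iEV, 27.9 in MB157 iSOX2 and 29.7 in MB157 iEV. It held 51 fragments (38.0 to 67.1) in MB157R iN1-ICD and 53 (39.7 to 69.3) in MB157R iEV, and 106 (86.8 to 128) in MB157 iSOX2 and 105 (85.9 to 127) in MB157 iEV, with expected backgrounds of 2.01, 2.04, 2.84 and 2.57. These intervals take in neither the depth of the lists nor the spread between libraries. By fold, PLK1 was lower in both MB157R lists than in both MB157 lists, whereas RRM2 was highest in MB157R iEV. HA-SOX2 had a summit of fold 4.10 (14 fragments) 15 bp from the canonical start. Among calls just inside the window, MCM7 in MB157R iN1-ICD was 997 bp from the TSS, while its summit in MB157 iSOX2 was at 1005 bp and was not counted.

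**Figure D3:**
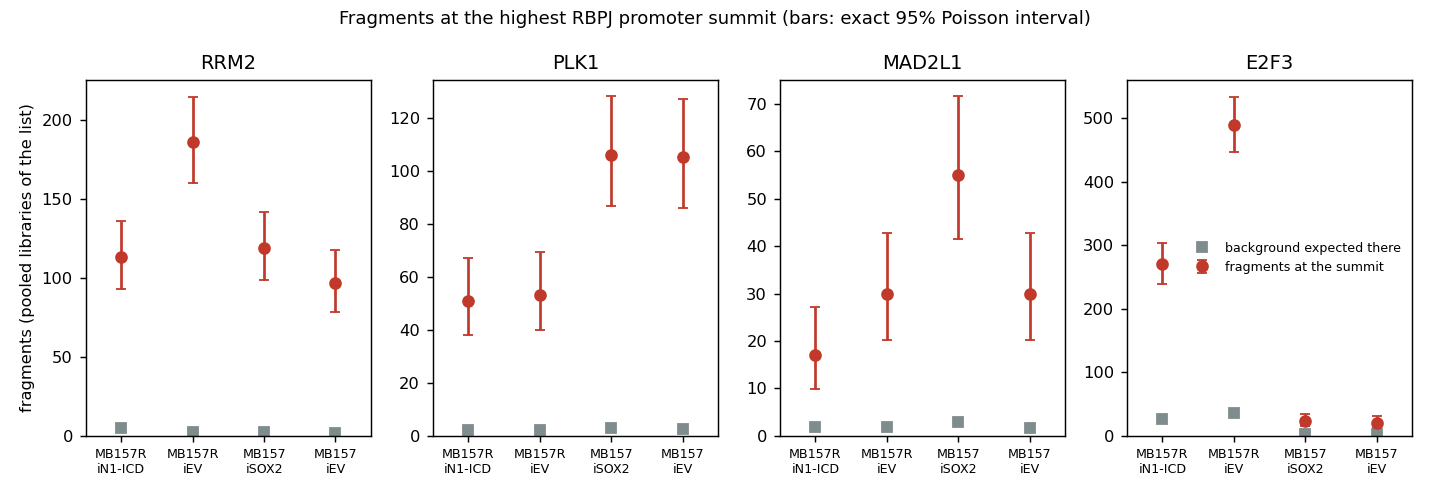
Fragments at the highest RBPJ summit near the start of RRM2, PLK1, MAD2L1 and E2F3 (vertical axes, from 0, with a scale for each gene) in the 4 RBPJ lists (horizontal axes). Circles are fragments with exact 95% Poisson intervals, squares the background that the peak caller expected at that place. E2F3 has 270 and 489 fragments in the MB157R lists over backgrounds of 25.6 and 35.3, against 23 and 20 in the MB157 lists over 2.99 and 2.21.

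The starting point mattered for 8 genes whose canonical transcript begins over 1 kb from the gene-record TSS: PLK1 (1.23 kb), CCNE2 (1.48 kb), CDC25B (9.54 kb), CDC25C (6.55 kb), PCNA (6.67 kb), RRM2 (2.04 kb), KIF11 (19.0 kb) and CENPA (21.8 kb). With the canonical start, RBPJ was called at 26 genes in MB157R iN1-ICD (background 45.6%) and 39 in MB157R iEV (59.6%). It was called at 32 in MB157 iSOX2 (53.5%) and 25 in MB157 iEV (40.3%). SOX2 was then called at 11 genes in MB157R iEV (27.5%; background 22.9%). HA-SOX2 was called at 17 in MB157 iSOX2 (42.5%; background 35.3%). In 9 genes another protein-coding gene starts within 1 kb of the gene-record TSS, so a summit there cannot be given to either. These were AURKA with CSTF1, CDC25B with CENPB, MCM2 with TPRA1, MCM4 with PRKDC, MCM7 with AP4M1, PCNA with CDS2, FOXM1 with RHNO1 and TULP3, KIF11 with IDE, and CENPA with SLC35F6.

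The spindle assembly checkpoint holds cells before anaphase until every chromosome is attached. RBPJ was called at 5 of its 6 promoters in MB157R iN1-ICD (background 42.9%) and 6 in MB157R iEV (56.0%). It was called at 4 in MB157 iSOX2 (50.3%) and 4 in MB157 iEV (37.9%). MAD2L1, which encodes the MAD2 inhibitor of the anaphase-promoting complex, had the highest fold of the 6 in every RBPJ list but MB157R iN1-ICD. There CDC20 was higher. The MAD2L1 folds were 6.54, 11, 14.7 and 11.5 in MB157R iN1-ICD, MB157R iEV, MB157 iSOX2 and MB157 iEV. These came from 17 (9.90 to 27.2), 30 (20.2 to 42.8), 55 (41.4 to 71.6) and 30 (20.2 to 42.8) fragments. In 3 of the lists the MAD2L1 summit was 436 to 461 bp upstream of the TSS, at the RBPJ word printed above. In MB157R iEV it was 78 bp upstream, where SOX2 also had a summit (fold 5.07, 14 fragments, 108 bp upstream). CDC20, the activator of the anaphase-promoting complex, had RBPJ folds of 7.70, 7.95, 5.93 and 7.28 in the same order, a narrow range. TTK, the kinase that starts checkpoint signaling, had 4.99, 3.61, 10.5 and 5.28, the highest in MB157 iSOX2, where HA-SOX2 also had a summit (fold 5.99).

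BUB1, a checkpoint kinase at the kinetochore, had RBPJ promoter folds of 4.87, 7.08, 5.27 and 3.31 in MB157R iN1-ICD, MB157R iEV, MB157 iSOX2 and MB157 iEV, from 14, 35, 15 and 9 fragments. These summits lay at different places, 616 bp upstream of the TSS in MB157R iN1-ICD and 608 bp downstream in MB157 iSOX2, with a different RBPJ word 2 bp and 41 bp away. It had no SOX2 or HA-SOX2 promoter summit. Its SOX2 site stood 11 kb upstream, with 105 fragments (85.9 to 127) over an expected 2.94 in MB157R iEV and SOX words as near as 3 bp to the summit. No HA-SOX2 summit was called there in MB157 iSOX2, whose closest sites to BUB1 were 5.54 kb (fold 5.80) and 23.4 kb (fold 17.3) upstream, and no RBPJ summit lay between 1 and 50 kb from BUB1 in any of the 4 RBPJ lists. BUB1B and BUB3, which act in the same checkpoint, had weak RBPJ sites. BUB1B had folds of 3.05 and 3.01 in MB157R iN1-ICD and MB157R iEV and no summit in either MB157 list, and BUB3 had a fold of 4.10 in MB157R iEV alone among the 4 RBPJ lists.

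Of the other mitotic regulators, AURKA, AURKB and BIRC5 had RBPJ at the promoter in all 4 lists (background 25.6%). AURKB, the kinase of the chromosomal passenger complex, had folds of 5.04, 5.18, 5.08 and 5.42 in MB157R iN1-ICD, MB157R iEV, MB157 iSOX2 and MB157 iEV, the most even values among the 17 genes called in all 4 lists. BIRC5 (survivin), another passenger subunit, had 3.42, 4.24, 3.03 and 3.81. AURKA, the centrosome kinase, had 4.26, 6.71, 3.82 and 4.76. Its expected background was 2.76 and 3.32 fragments in MB157R iN1-ICD and MB157R iEV, and 7.90 and 5.52 in MB157 iSOX2 and MB157 iEV. The HA control list had sites within 50 kb of 1 of the 40 genes, against 0.532% of other genes. These were 2 summits 10.9 and 12.3 kb upstream of AURKB, with folds of 9.77 and 9.05 from 17 and 19 fragments, and HA-SOX2 in MB157 iSOX2 had its nearest upstream summit 10.3 kb from AURKB (fold 11.9), less than 1 kb from the nearer of them.

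Cyclins and cyclin-dependent kinases drive the transitions. CDK1, the mitotic kinase, had RBPJ folds of 8.35, 10.3, 6.26 and 4.22 in MB157R iN1-ICD, MB157R iEV, MB157 iSOX2 and MB157 iEV, from 22, 28, 18 and 10 fragments, and both MB157R values were above both MB157 values. In MB157R the RBPJ summits were 24 and 46 bp upstream of the TSS, and in MB157 iSOX2 and MB157 iEV 521 and 210 bp downstream. CCNA2, cyclin A of S phase and mitosis, had 6.73 in MB157R iEV and 5.86 in MB157 iSOX2 and no summit in MB157R iN1-ICD or MB157 iEV. Both lists that had it also had SOX2 (fold 5.41, MB157R iEV) or HA-SOX2 (fold 4.42, MB157 iSOX2) at the promoter. CDK2, the kinase of the G1 to S transition, had 6.73 in MB157R iEV, 7.82 in MB157 iSOX2 and 4.31 in MB157 iEV, and no summit in MB157R iN1-ICD. The cyclin B genes were weaker, with 4.61, 4.18 and 4.30 for CCNB1 in MB157R iEV, MB157 iSOX2 and MB157 iEV. CCNB2 had 4.63, 5.61 and 3.29 in MB157R iN1-ICD, MB157R iEV and MB157 iSOX2. CDC25A, the phosphatase that activates CDK2 and CDK1, had 5.45, 9.57 and 5.60 in MB157R iN1-ICD, MB157R iEV and MB157 iSOX2, with no summit in MB157 iEV.

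CCNE1, cyclin E of the G1 to S transition, differed between the lines away from its promoter. A site 4.63 kb upstream (4.64 kb in MB157 iSOX2) had an RBPJ fold of 19.0 (144 fragments, 121 to 170) in MB157 iSOX2 and 27.9 (217 fragments, 189 to 248) in MB157 iEV, and neither MB157R list had a summit within 5 kb upstream other than at the promoter. At the promoter itself the fold was 3.90 in MB157R iEV, MB157 iSOX2 and MB157 iEV alike, from 10, 37 and 23 fragments over expected backgrounds of 1.82, 8.75 and 5.15. The same fold thus came from very different fragment numbers. Within 1 Mb of CCNE1 the median background was 1.00 times the floor in MB157R iN1-ICD and MB157R iEV, 3.14 times in MB157 iSOX2 and 3.13 times in MB157 iEV. Whether the absent upstream site goes with this difference was not tested.

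Origin licensing loads the MCM helicase before S phase. RBPJ was called at 7 of the 8 licensing promoters in MB157R iN1-ICD (background 42.9%) and 8 in MB157R iEV (56.0%). It was called at 4 in MB157 iSOX2 (50.3%) and 5 in MB157 iEV (37.9%). MCM7 was the strongest. Its RBPJ folds were 10.2 in MB157R iN1-ICD, 12 in MB157R iEV and 10.3 in MB157 iEV, and 10.4 in MB157 iSOX2 for the summit just outside the window. It also had the highest promoter fold of the set for SOX2 (13.7, 71 fragments, 55.5 to 89.6, MB157R iEV) and for HA-SOX2 (7.92, 47 fragments, 34.5 to 62.5, MB157 iSOX2). The summits of RBPJ in MB157R iEV and MB157 iEV and of SOX2 and HA-SOX2 fell within 288 to 366 bp downstream of the MCM7 TSS, 1 to 71 bp from the E2F word printed above. MCM3 had RBPJ folds of 6.17, 10.6, 8.33 and 8.26 in MB157R iN1-ICD, MB157R iEV, MB157 iSOX2 and MB157 iEV and no SOX2 or HA-SOX2 summit. CDC6 and CDT1, which bring the helicase to origins, parted: CDC6 had 5.04 and 4.88 in MB157R iN1-ICD and MB157R iEV and no summit in either MB157 list, and CDT1 had 3.99, 5.91, 7.02 and 6.24. MCM6 likewise had RBPJ only in the 2 MB157R lists (3.68 in MB157R iN1-ICD and 5.63 in MB157R iEV). PCNA, the sliding clamp of the replication fork, had 6.90, 7.44, 6.24 and 5.54.

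The transcription factors of the set are the E2F factors, which switch on much of this program, and FOXM1. RBPJ was called at 2 of these 4 promoters in MB157R iN1-ICD (background 42.9%) and 4 in MB157R iEV (56.0%). It was called at 2 in MB157 iSOX2 (50.3%) and 2 in MB157 iEV (37.9%). E2F3 had RBPJ promoter folds of 10.2, 13.5, 6.02 and 6.55 in MB157R iN1-ICD, MB157R iEV, MB157 iSOX2 and MB157 iEV. E2F1 had 4.75 and 6.51 in MB157R iN1-ICD and MB157R iEV and no summit in either MB157 list. E2F2 had 5.79, 5.60 and 4.61 in MB157R iEV, MB157 iSOX2 and MB157 iEV. FOXM1, the factor of the mitotic wave, had 4.52 in MB157R iEV alone among the RBPJ lists, and an HA-SOX2 fold of 5.98. Among genes of chromosome structure and motors, KIF11, the kinesin that separates spindle poles, had RBPJ folds of 6.14, 11.7, 10.9 and 5.60. These were at the gene-record TSS, within 1 kb of the start of IDE. At its canonical start KIF11 had 5.34 in MB157R iEV, 3.95 in MB157 iSOX2 and 5.38 in MB157 iEV, and no summit in MB157R iN1-ICD. MKI67, the proliferation antigen Ki-67, had 6.38 in MB157R iEV and 4.28 in MB157 iSOX2. CENPA, the centromeric histone, had 3.38, 6.76, 5.82 and 3.73, and CENPE, a kinetochore motor, had 4.28 in MB157 iSOX2 only. The CENPA values were at the gene-record TSS, within 1 kb of the start of SLC35F6. At its canonical start CENPA had 3.04 in MB157R iEV, 3.48 in MB157 iSOX2 and no summit in the other RBPJ lists.

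The E2F3 values rest on an unusual background. Its promoter summit held 270 fragments (239 to 304) in MB157R iN1-ICD and 489 (447 to 534) in MB157R iEV, against 23 (14.6 to 34.5) in MB157 iSOX2 and 20 (12.2 to 30.9) in MB157 iEV. The background expected there was 25.6 and 35.3 fragments in the MB157R lists and 2.99 and 2.21 in the MB157 lists. SOX2 in MB157R iEV had 193 fragments over 36.2 expected, and HA-SOX2 in MB157 iSOX2 had 18 over 2.66. The fold corrects for this, so it differed far less between the lines than the fragments did. Within 1 Mb of the E2F3 TSS, the median background at RBPJ summits was 15.1 times the list's floor in MB157R iN1-ICD and 16.3 times in MB157R iEV, against 1.26 times in MB157 iSOX2 and 1.21 times in MB157 iEV. The inputs of the MB157R vectors are separate libraries, and the RBPJ and SOX2 lists of MB157R iEV share theirs (16.3 times for SOX2). The stretch had sharp ends. In MB157R iEV, 121 consecutive RBPJ summits between 0.0238 Mb upstream and 2.43 Mb downstream of the E2F3 TSS all had a background of at least 5 times the floor, with a median of 19.3. In MB157R iN1-ICD there were 113 in the same stretch, with a median of 18.0, and within 10 Mb of E2F3 the MB157 lists had 0 such summits. RBPJ summits within 1 Mb of E2F3 numbered 57 in MB157R iN1-ICD, 53 in MB157R iEV, 21 in MB157 iSOX2 and 18 in MB157 iEV. The copy number of this stretch of chromosome 6 was not tested.

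**Figure D4:**
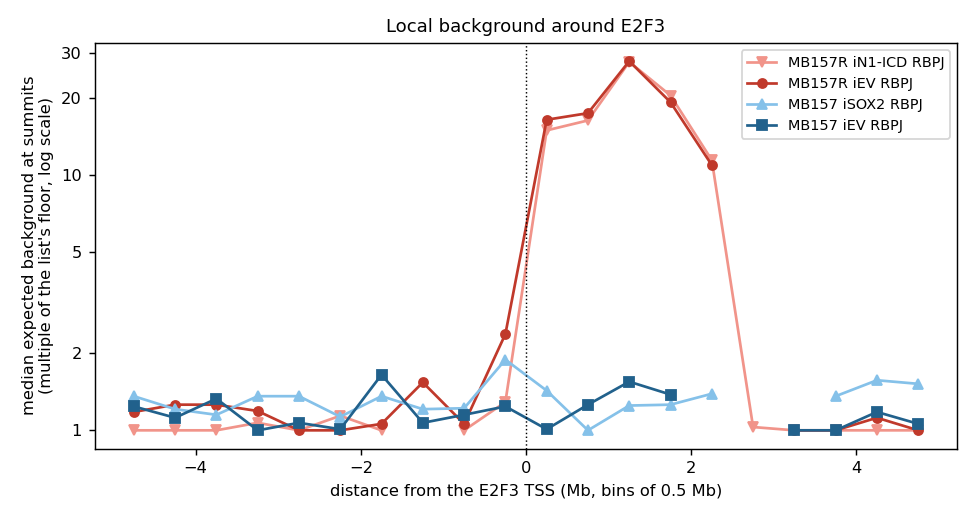
Median expected background at RBPJ summits (vertical axis, multiple of the list's floor, log scale) in bins of 0.5 Mb by distance from the E2F3 TSS (horizontal axis, Mb), for the 4 RBPJ lists. Both MB157R lists step up at E2F3, reach 27.6 and 27.8 between 1.0 and 1.5 Mb downstream, and are near 1.00 beyond 2.5 Mb, while the MB157 lists stay between 1.00 and 1.89 over the whole plot. Many bins outside the stretch hold 5 summits or fewer, and lines break at bins with none.

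Smaller differences in local background were found at 7 further genes, and the shares in each direction were near those of other genes. How far these differences reach along the chromosome was not examined. Of 39 genes with at least 5 RBPJ summits within 1 Mb in both lists, 4 had a median background at least 1.5 times higher in MB157R iEV than in MB157 iEV (E2F3, CDC6, TOP2A and CCNB2; 9.30% of 18494 other genes), and 4 had one at least 1.5 times lower (CCNE1, AURKA, CCNE2 and MCM4; 8.38%). CDC6 and TOP2A, both on chromosome 17, had 1.82 times the floor in MB157R iEV and 1.00 in MB157 iEV. AURKA had 1.40 in MB157R iEV and 2.98 in MB157 iEV. E2F3 was alone among the 40 in its size, with a ratio of 13.5, and 6 other protein-coding genes had a ratio of at least 10. A list cannot show a background below its floor, so losses are not visible here.

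**Figure D5:**
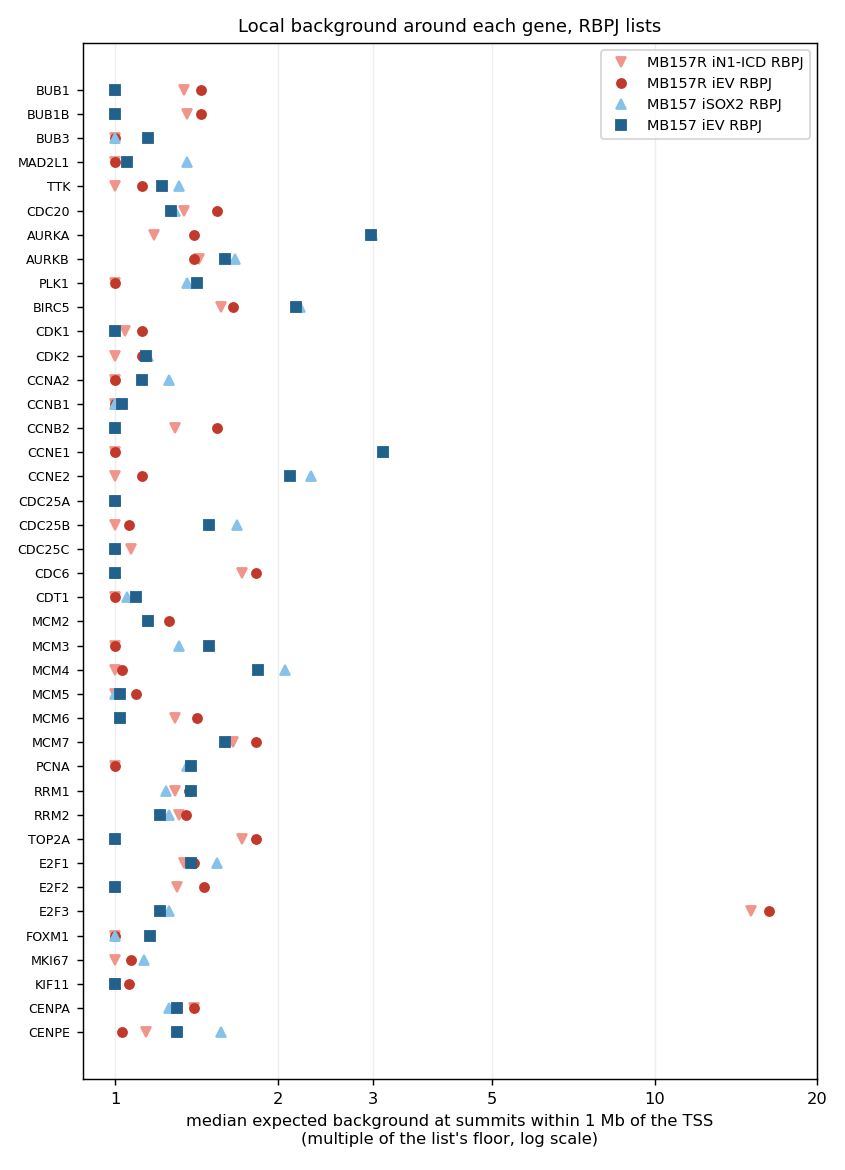
Median expected background at RBPJ summits within 1 Mb of each TSS (horizontal axis, multiple of the list's floor, log scale) for the 40 genes (vertical axis) in the 4 RBPJ lists (symbols). Most genes lie between 1 and 2 in every list, E2F3 stands at 15.1 and 16.3 in the MB157R lists, and CCNE1 at 3.14 and 3.13 in the MB157 lists.

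The first comparison asked how RBPJ occupancy differs between resistant and parental cells. A promoter summit was present in both MB157R iEV and MB157 iEV at 24 of the 40 genes, in MB157R iEV only at 14 (35.0%; background 22.7%) and in MB157 iEV only at 0 (background 4.58%). Of the cell cycle promoters called in MB157R iEV, 63.2% were also called in MB157 iEV, against 59.5% for other genes. The 14 genes were BUB1B, BUB3, CCNA2, CCNB2, CCNE2, CDC25A, CDC25B, CDC6, MCM5, MCM6, TOP2A, E2F1, FOXM1 and MKI67. No peak of MB157 iEV overlapped any of these 14 peaks, which was not counted for other genes. The 5 highest were CDC25A (fold 9.57, 26 fragments), CCNA2 (6.73, 18 fragments), E2F1 (6.51, 21 fragments), MKI67 (6.38, 17 fragments) and MCM6 (5.63, 19 fragments). With the canonical start, CCNE2 and CDC25B had RBPJ in both lists. Their folds were 8.18 and 6.67 in MB157R iEV, and 7.64 and 7.43 in MB157 iEV. CDC25C (3.67) and CENPA (3.04) then had it in MB157R iEV only. At the 24 shared genes the fold was higher in MB157R iEV at 18 and lower at 5, with medians of 6.75 in MB157R iEV and 4.69 in MB157 iEV, and over all promoter summits the medians were 6.02 in MB157R iEV and 4.99 in MB157 iEV. The counts moved with list length. When all RBPJ lists were shortened to the 25243 peaks of the shortest, 7 genes were called in MB157R iEV only (background 14.2%) and 5 in MB157 iEV only (9.96%). At a −log10 q of at least 5, MB157R iEV only had 17 genes (28.1%) and MB157 iEV only had 2 (3.41%).

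The second comparison asked what induced SOX2 does to RBPJ in the parental line. Both lists had a promoter summit at 22 genes, MB157 iSOX2 only at 8 (background 16.0%) and MB157 iEV only at 2 (background 3.59%). Of the cell cycle promoters called in MB157 iSOX2, 73.3% were also called in MB157 iEV, against 68.2% for other genes. The 8 genes were CCNA2 (fold 5.86), CDC25A (5.60), MCM5 (4.78), MKI67 (4.28), CENPE (4.28), TOP2A (3.62), CCNB2 (3.29) and CDC25B (2.94). With the canonical start, CDC25B had RBPJ in both lists (6.75 in MB157 iSOX2 and 7.43 in MB157 iEV). CENPA (3.48) then had it in MB157 iSOX2 only. This comparison and the first share MB157 iEV as their control. At the 22 shared genes the fold was higher in MB157 iSOX2 at 13 and lower at 8, with medians of 5.88 in MB157 iSOX2 and 4.69 in MB157 iEV, whereas over all promoter summits they were 4.76 in MB157 iSOX2 and 4.99 in MB157 iEV. The 2 genes of MB157 iEV were MCM2 (4.58) and MCM7 (10.3), of which MCM7 had a peak in MB157 iSOX2 with its summit just outside the window. With lists of equal length, MB157 iSOX2 only had 5 genes (background 11.1%) and MB157 iEV only had 3 (6.09%). Of the 8, CCNA2, CCNB2 and TOP2A also had an HA-SOX2 promoter summit, and the other 5 did not.

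The third comparison asked what active NOTCH1 does to RBPJ in resistant cells. Both lists had a promoter summit at 26 genes, MB157R iN1-ICD only at 0 (background 2.53%) and MB157R iEV only at 12 (30%; background 15.6%). The 12 genes were BUB3, CDK2, CCNA2, CCNB1, CCNE1, CDC25B, CDC25C, MCM5, TOP2A, E2F2, FOXM1 and MKI67. The highest folds in MB157R iEV were those of CDK2 (6.73), CCNA2 (6.73), MKI67 (6.38), E2F2 (5.79) and MCM5 (4.99). No peak of MB157R iN1-ICD overlapped any of the 12, which was not counted for other genes. With the canonical start, CDC25B had RBPJ in both lists (5.81 in MB157R iN1-ICD and 6.67 in MB157R iEV). KIF11 (5.34) and CENPA (3.04) then had it in MB157R iEV only. At the 26 shared genes the fold was higher in MB157R iN1-ICD at 5 and lower at 21, with medians of 5.04 in MB157R iN1-ICD and 6.73 in MB157R iEV. The median over all promoter summits of the genome was likewise lower, at 4.94 in MB157R iN1-ICD and 6.02 in MB157R iEV. MB157R iN1-ICD held summits at 68.4% of the cell cycle promoters called in MB157R iEV, against 72.1% for other genes. With lists of equal length, 2 genes were called in MB157R iN1-ICD only (background 4.14%) and 8 in MB157R iEV only (14.1%). At a −log10 q of at least 5 these were 1 (1.99%) and 14 (22.2%).

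SOX2 was compared in the same cells. None of the 40 genes had a SOX2 promoter summit in MB157R iN1-ICD, whose SOX2 list held 323 peaks, and 13 had it in MB157R iEV only (background 21.7%). These were MAD2L1, AURKA, CDK1, CCNA2, CCNB2, CDC25A, MCM6, MCM7, PCNA, RRM1, RRM2, E2F3 and KIF11. At a −log10 q of at least 5 there were 7 (background 11%). Within 50 kb, SOX2 in MB157R iN1-ICD had no summit at any of the 40 genes, against 1.09% of other genes. SOX2 in MB157R iEV and HA-SOX2 in MB157 iSOX2 shared 10 genes. SOX2 in MB157R iEV alone had 3 (MAD2L1, CDC25A and MCM6; background 6.47%), and HA-SOX2 alone had 8 (TTK, AURKB, CCNE2, CDT1, TOP2A, E2F2, FOXM1 and CENPA; background 18.7%). The antibodies and lines of these lists differ, and the HA-SOX2 list is much longer. Shortened to 37963 peaks by −log10 q, HA-SOX2 kept 1 of its 18 promoters (background 3.99%), so 12 genes were then called by SOX2 in MB157R iEV alone and 0 by HA-SOX2 alone. The share of other genes called was much lower at that length as well.

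RBPJ and SOX2 summits less than 500 bp apart were counted as co-localized, the distance the study used. In MB157R iEV, 12 of the 38 genes with an RBPJ promoter summit had a SOX2 summit that close (31.6%; background 32.5%), at a median distance of 89 bp. In MB157 iSOX2, 12 of 30 had an HA-SOX2 summit that close (40%; background 46.4%), at a median of 128 bp. The shares were near or below those of other genes. Co-localization in both conditions was seen at AURKA, CDK1, CCNA2, PCNA, RRM1, E2F3 and KIF11. In MB157R iEV it was also seen at MAD2L1, CCNB2, CDC25A, MCM6 and MCM7, and in MB157 iSOX2 at TTK, AURKB, RRM2, TOP2A and CENPA. These counts use the gene-record TSS. The canonical starts of KIF11 and PCNA had no SOX2 summit in MB157R iEV. Those of PCNA and CENPA had no HA-SOX2 summit in MB157 iSOX2. At less than 100 bp there were 6 genes in MB157R iEV (background 14.3%) and 6 in MB157 iSOX2 (16.9%), and at less than 250 bp 7 in MB157 iSOX2 (32.3%).

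Few of these promoter summits held an RBPJ or SOX word. Within 100 bp of RBPJ promoter summits of the 40 genes, an RBPJ word was present at 3 of 30 summits in MB157R iN1-ICD (10.0%, against 8.99% of summits at other promoters), 0 of 44 in MB157R iEV (against 7.20%), 2 of 34 in MB157 iSOX2 (5.88%, against 8.52%) and 1 of 27 in MB157 iEV (3.70%, against 10.3%). Around all TSSs, 2.41% of windows of the same length held an RBPJ word. At SOX2 promoter summits in MB157R iEV, a SOX word was present at 3 of 15 (20.0%, against 31.2%), and at HA-SOX2 promoter summits in MB157 iSOX2 at 4 of 19 (21.1%, against 31.0%). A CHR word was present at 8 of those 15 SOX2 summits (53.3%, against 10.8% of SOX2 summits at other promoters) and at 4 of the 19 HA-SOX2 summits (21.1%, against 12.4%). MCM6 and RRM1 each gave more than 1 of the 8. Within 50 bp, the CHR word was present at 4 of the 15 (background 5.88%) and at 2 of the 19 (6.5%). At RBPJ promoter summits it was present at 5 of 30 in MB157R iN1-ICD (16.7%, against 6.38%), 8 of 44 in MB157R iEV (18.2%, against 6.15%), 4 of 34 in MB157 iSOX2 (11.8%, against 6.08%) and 5 of 27 in MB157 iEV (18.5%, against 6.91%). Within 50 bp these counts were 3 (background 2.97%), 2 (2.86%), 3 (2.92%) and 2 (3.43%), so in MB157R iEV and MB157 iEV most of these words lay further from the summit. All windows of 201 bases around a TSS held a SOX word in 13.5% and a CHR word in 8.20%. The promoters of these genes were rich in CHR words whether bound or not, with 45.2% of the 31 searched, against 13.4% of others. The higher CHR shares at their summits cannot be told apart from this. Away from promoters, each factor's own word was found at shares near those elsewhere. Within 50 kb of the genes, a SOX word was found at 45.8% of distal SOX2 summits in MB157R iEV, against 44.5% elsewhere, and at 61.0% of distal HA-SOX2 summits in MB157 iSOX2, against 62.2%. An RBPJ word was found at 15.1%, 10.9%, 15.0% and 15.9% of distal RBPJ summits in MB157R iN1-ICD, MB157R iEV, MB157 iSOX2 and MB157 iEV, against 12.9%, 10.1%, 13.7% and 15.4% elsewhere. Other words differed more, such as CHR words at 6.45% of distal RBPJ summits in MB157R iN1-ICD, against 11.5%.

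Counted within 50 kb, nearly every gene had a site. RBPJ had a summit at 36 genes in MB157R iN1-ICD (background 78.4%), 39 in MB157R iEV (85.6%), 39 in MB157 iSOX2 (82.8%) and 34 in MB157 iEV (73.2%). SOX2 had one at 28 genes in MB157R iEV (background 72.3%) and HA-SOX2 at all 40 in MB157 iSOX2 (91.3%). For SOX2 in MB157R iEV the share of the cell cycle genes (70.0%) was thus near that of other genes. The median number of summits between 1 and 50 kb was 1.00 for RBPJ in MB157R iN1-ICD and 2.00 in MB157R iEV, the same as for other genes in both lists. It was 2.00 in MB157 iSOX2, as for other genes, and 1.5 in MB157 iEV, against 1.00 for other genes. For HA-SOX2 in MB157 iSOX2 it was 4.50, against 4.00, and for SOX2 in MB157R iEV 1.00 in both. Distal sites of the highest fold mostly lay in or near other genes, to which they may belong. The site in intron 1 of RARA, a retinoic acid receptor, 30.2 kb downstream of the CDC6 TSS, had RBPJ folds of 48.9 in MB157R iN1-ICD, 45.4 in MB157R iEV, 25.7 in MB157 iSOX2 and 20.0 in MB157 iEV. It held 195, 288, 77 and 63 fragments over expected backgrounds of 3.01, 5.37, 2.04 and 2.21, and its RBPJ word was 4 to 30 bp from the summit. A site 25.0 kb downstream of the CDC25B TSS, 8.75 to 8.79 kb from AP5S1, ran the other way, with 25.8, 20.2, 33.9 and 45.7 in the same order. SOX2 (fold 10.8, MB157R iEV) and HA-SOX2 (12.4, MB157 iSOX2) had summits there as well. In intron 1 of PIEZO1, 33.0 kb from the CDT1 TSS, RBPJ had 12, 20.2, 10.5 and 10.8 in that order, and a site 28.5 kb upstream of MCM5, nearer to HMOX1, had 10.5, 11, 17.8 and 14.6.

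The strongest SOX2 sites within 50 kb in MB157R iEV, after the BUB1 site, were 28.4 kb upstream of MCM7 near MBLAC1 (fold 20.3), at the promoter of BORCS6 20.4 kb from AURKB (16.4) and 42.0 kb upstream of MCM5 (14.2). The strongest HA-SOX2 sites in MB157 iSOX2 were in an intron of TP53INP1 49.4 kb from CCNE2 (50.4), in intron 1 of IDE 14.6 kb from KIF11 (49.4), and in intron 14 of BBS7 10.8 kb upstream of CCNA2 (46.1, 179 fragments, 154 to 207). The last was closer to the TSS of CCNA2 than to that of any other protein-coding gene, and no SOX2 summit of MB157R iEV lay within 1 kb of it. The sites of highest SOX2 fold near BUB1 and of highest HA-SOX2 fold near CCNA2 were thus each called in 1 of these 2 lists.

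Other genes of the cell cycle, 79 in 3 lists, were above the background of all genes in every RBPJ list as well. RBPJ promoter summits were called at 48 (60.8%) in MB157R iN1-ICD, 65 (82.3%) in MB157R iEV, 64 (81.0%) in MB157 iSOX2 and 42 (53.2%) in MB157 iEV, and SOX2 and HA-SOX2 at 23 (29.1%, MB157R iEV) and 45 (57.0%, MB157 iSOX2). The backgrounds were 42.9%, 56.0%, 50.3% and 37.9% for RBPJ, 21.8% for SOX2 and 34.0% for HA-SOX2. Compared with the 40 genes, the share of these 79 was lower in MB157R iEV RBPJ and higher for HA-SOX2. Of 29 further replication origin and fork genes, RBPJ was called at 21, 24, 24 and 20 in MB157R iN1-ICD, MB157R iEV, MB157 iSOX2 and MB157 iEV. Of 31 further mitosis genes it was called at 18, 26, 25 and 12, the last (38.7%) close to the background of 37.9% in MB157 iEV, and of 19 further genes of G1 control and the RB, E2F and MYBL2 factors at 9, 15, 15 and 10. Among 7 genes of CDK inhibitors, which oppose the cycle, RBPJ was called at 4, 5, 5 and 3.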

How the data were processed

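RBPJ, SOX2 and HA ChIP-seq of MB157 and MB157R cells was analysed from 8 peak lists. The authors trimmed the reads, aligned them to hg38 with BWA, pooled the libraries of each group and called narrow peaks with MACS2 against the inputs. Each deposited list gives a score, the fold (a ratio over the local background), −log10 p and −log10 q at each summit, as the authors' peak caller wrote them. Peaks on chromosomes 1 to 22 and X were used, and 0 columns of unknown samples were found. Read totals per library were not used here, so depth was taken from the deposited values: the pair of fold and −log10 p fixes how many fragments covered a summit and how many the peak caller expected, and the lowest expected number is the list's floor. All 955 gene-summit pairs of the 40 genes gave a whole number within a tolerance of 0.002 of −log10 p. On simulated data, 99.97% of 2967 fragment counts and 100% of 200 planted promoter summits were recovered.

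Summits were assigned to GENCODE 44 genes within 1 kb or 50 kb. Sequences came from hg38 and, for 300-base promoters, RefSeq (GRCh38.p14). All 40 genes were accounted for. Values were given for the 5 highest promoter folds of a list, genes whose calls differed between lists (the 5 highest of more than 10), genes without an RBPJ promoter summit, the 3 highest distal sites of a list and BUB1, with further values chosen after the data had been seen. The genes and lists were chosen with earlier results of these data known. Alternatives were windows of 500 bp and 5 kb, other starts, a −log10 q of at least 5, equal list lengths, other distances and promoters that are or are not CpG-rich, the last added after seeing the data. Calculations used pandas 2.3.3, pysam 0.24.0, scipy 1.17.1 and numpy 2.4.6 under Python 3.11.15, with matplotlib 3.10.9 for plots.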

Additional observations from a re-analysis of the deposited data

How the results depend on the processing

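Of 152 alternatives, 128 left the count or share within 1.5 times its value, and 24 moved it further. At a −log10 q of at least 5, promoter summits of the 40 genes numbered 16 for RBPJ in MB157R iN1-ICD (28.0% of other genes), 14 in MB157 iEV (23.5%) and 7 for SOX2 in MB157R iEV (11.1%). The genes called in 1 list of a comparison then numbered 2 for MB157 iEV only (against MB157R iEV), 1 for MB157R iN1-ICD RBPJ only and 7 for MB157R iEV SOX2 only. With lists of equal length, HA-SOX2 had 1 promoter, MB157R iEV RBPJ only had 7 and MB157 iEV only 5, MB157 iSOX2 only had 5, MB157R iN1-ICD RBPJ only had 2, and SOX2 in MB157R iEV only had 12, with HA-SOX2 only at 0. With a 5 kb window, HA-SOX2 only had 13. Co-localization within 100 bp was seen at 6 genes in MB157R iEV and 6 in MB157 iSOX2, and within 250 bp at 7 in MB157 iSOX2. Within 50 bp of promoter summits, SOX words were at 2 HA-SOX2 summits, and CHR words at 3 RBPJ summits in MB157R iN1-ICD, 2 in MB157R iEV, 2 in MB157 iEV, 4 SOX2 summits in MB157R iEV and 2 HA-SOX2 summits in MB157 iSOX2. Among promoters that are not CpG-rich, a class added after seeing the data, SOX2 in MB157R iEV was called at 20.0% of the genes (15.7% of others). The causes of these shifts were not tested beyond the shorter lists and windows that define them. No paired analysis was possible because each list pools the libraries of its group, and leaving out a replicate was not run for the same reason. Equal length was not run for SOX2 in MB157R iN1-ICD, whose list is too short to set the length of the others. Most promoter calls rest on 10 to 30 fragments, so a gene without a call was not detectable at this depth, which does not show that the factor is absent.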
